A study of Danio rerio with 16 samples.

Results

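The genes TGM1 (ENSDARG00000101407), PKP1 (ENSDARG00000052705) and lgals4 (ENSDARG00000104016) were followed in whole zebrafish larvae, 3 genes of the 22994 in the table. They encode epithelial barrier proteins and were chosen from measured values of these same libraries. TGM1 was chosen as lowered by cortisol, PKP1 as higher in VBA- larvae and lgals4 as lower with both. The calls behind these choices were cortisol against vehicle in VBA+ larvae and VBA- against VBA+ larvae under vehicle, but the choice named neither a genotype for TGM1 nor a treatment for PKP1. The cortisol comparisons of TGM1, the genotype comparisons of PKP1 and all comparisons of lgals4 are therefore given as descriptions with no p-value, and whether one met the limits for a call is a description too.

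RNA was sequenced from 16 pools, each of 8 larvae frozen at 5 days post fertilization (dpf), in 4 groups of 4 pools. The parents carried GR369-, a CRISPR-made frameshift allele of nr3c1, the gene for the glucocorticoid receptor (GR), kept in the AB strain. Larvae were sorted by visual background adaptation (VBA), in which pigment cells disperse on a light background when GR works. VBA- larvae were sorted as homozygous for GR369-, and VBA+ larvae are an unsorted mixture of heterozygotes and wild types, so the VBA+ groups are not a pure wild type. The groups were VBA- larvae raised in 1 uM cortisol, VBA- larvae raised in the DMSO vehicle, VBA+ larvae raised in 1 uM cortisol and VBA+ larvae raised in vehicle. The 4 pools of a group came out of 1 dish, and the dishes were collected in turn, so dish and time of collection cannot be told apart from the group. The p-values measure the spread between pools of 1 dish.

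Epithelia keep water and microbes out in several ways, and each of the genes belongs to a different one. TGM1 encodes transglutaminase 1, an enzyme that in mammalian skin crosslinks proteins into the cornified envelope of the outermost keratinocytes. Fish skin stays alive to its surface and forms no such cornified layer, so that role is background from mammals only. PKP1 encodes plakophilin 1, a plaque protein of desmosomes, the junctions that tie the keratin filaments of neighbouring cells together, and its loss in humans makes skin fragile. The lgals4 gene encodes galectin-4, a lectin that binds galactose-containing sugars and in mammals is made mainly by the lining of the gut.

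Values are the deposited log2 of a normalized count plus 0.1, and a log2 fold change is a difference on that scale, the first-named group minus the second. The authors' normalization gave every library the same sum of 14653434 normalized counts, so the sequencing depth behind a value is unknown. All 3 genes passed the filter on low values, with a mean normalized count over the 16 libraries of 105 for TGM1, 456 for PKP1 and 163 for lgals4. Comparisons were fitted with limma, and p-values were adjusted over 21686 genes by the method of Benjamini and Hochberg. A call, as in the methods of the study, required that the adjusted p did not exceed 0.05, that the log2 fold change reached 0.5 in either direction with a standard error (SE) below 1, and that normalized counts averaged 75 or more. Because whole larvae were used, fewer cells of a type and less RNA per cell cannot be told apart.

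The genotype labels were examined first. NR3C1 (ENSDARG00000025032) had levels between 7.83 and 9.21 in the VBA- cortisol libraries and 8.42 and 9.33 in the VBA- vehicle libraries, against 9.39 to 9.59 in VBA+ cortisol and 9.18 to 9.52 in VBA+ vehicle. FKBP5 (ENSDARG00000028396), a chaperone gene that GR switches on, separated most VBA- libraries more widely. It had 10 to 123 normalized counts in 3 VBA- cortisol libraries and 38 to 64 in 3 VBA- vehicle libraries, against 391 to 711 in VBA+ cortisol and 342 to 508 in VBA+ vehicle. The library labelled replicate 1 stood apart in both VBA- groups, with 494 normalized counts of FKBP5 in cortisol and 420 in vehicle, inside the VBA+ ranges. NR3C1 in replicate 3 of VBA- vehicle (9.33) also lay inside the VBA+ vehicle range. Whether larvae of another genotype were in these pools was not tested. Fold changes of the 3 genes that include a VBA- replicate 1 are given with and without it.

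TGM1 was lower in VBA+ larvae raised in cortisol than in VBA+ larvae raised in vehicle, the call behind its choice. Its level was 4.33, 4.91, 6.29 and 6.05 in the VBA+ cortisol libraries, in replicate order, against 7.62, 7.25, 6.36 and 7.07 in the VBA+ vehicle libraries. The highest cortisol library lay just under the lowest vehicle library, so the groups did not overlap. The means were 5.39 ± 0.93 and 7.07 ± 0.53 (SD, n = 4 each), a log2 fold change of -1.68 ± 0.42 (SE), or 3.21-fold lower. In that comparison 8.22% of tested genes were called, with 3.6% called higher and 4.63% lower, while 20.2% had groups that did not overlap. Most of the TGM1 difference came from replicates 1 and 2, where it was -2.82, against -0.55 in replicates 3 and 4. TGM1 no longer met the call limits without VBA+ cortisol replicate 1 or 2 or without VBA+ vehicle replicate 1, 2 or 4, with log2 fold changes between -1.68 and -1.33.

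In VBA- larvae the TGM1 libraries of the cortisol group were spread widely. They were at 6.87, 7.29, 4.71 and 5.98 in VBA- cortisol, against 7.71, 7.25, 6.59 and 6.70 in VBA- vehicle. Replicates 3 and 4 of the cortisol group lay below every vehicle library, and replicates 1 and 2 lay among them. The means were 6.21 ± 1.14 and 7.06 ± 0.52 (SD, n = 4 each), and the log2 fold change was -0.85 ± 0.52 (SE). Without the VBA- cortisol replicate 1 it was -1.07 and without the VBA- vehicle replicate 1 it was -0.63. It was smallest without the VBA- cortisol replicate 3, at -0.35. No gene was called for cortisol in VBA- larvae (0% of those tested), and 1.52% had groups that did not overlap. Only 389 of the 21686 tested genes had an unadjusted limma p under 0.05, and 1004 did when replicates 1 and 2 had a term of their own. Both counts are lower than that limit gives by chance when no gene differs. Counts this low cannot show whether further genes differ. Alternative fits did call a few genes, all of them higher in cortisol. These were 5 genes with all 16 libraries in 1 fit and 2 genes when replicates 1 and 2 had a term of their own. The other 7 alternatives called none, nor did any fit with a library left out. With DESeq2 on counts, the study itself reports a small set of genes raised by cortisol in VBA- larvae, npas4a and egr1 among them.

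The cortisol effect on TGM1 in VBA- minus that in VBA+ larvae, the interaction, was 0.83 ± 0.73 (SE). It was 0.61 without the VBA- cortisol replicate 1 and 1.05 without the VBA- vehicle replicate 1. It is built on the groups behind the choice of TGM1, so no p-value is drawn from it. Over all tested genes 0.00461% were called for the interaction. Under vehicle the gene had nearly equal means in VBA- and VBA+ larvae, 7.06 and 7.07, with a log2 fold change of -0.01 ± 0.30 (SE, limma adjusted p 0.99) and of -0.23 without the VBA- vehicle replicate 1. The VBA+ vehicle libraries of that comparison also took part in the choice of TGM1. Under cortisol the mean was 6.21 in VBA- and 5.39 in VBA+ larvae, a log2 fold change of 0.82 ± 0.61 (SE, limma adjusted p 0.599, two-sided exact permutation p 0.314), and of 0.60 without the VBA- cortisol replicate 1. That difference was 2.46 in replicates 1 and 2 and -0.82 in replicates 3 and 4, so its direction was not the same in both. The VBA+ cortisol libraries in it took part in the choice of TGM1, and that choice favours a positive value. In order of their means the groups ran from VBA+ vehicle and VBA- vehicle through VBA- cortisol to VBA+ cortisol, and each overlapped its neighbour.

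**Figure D1:**
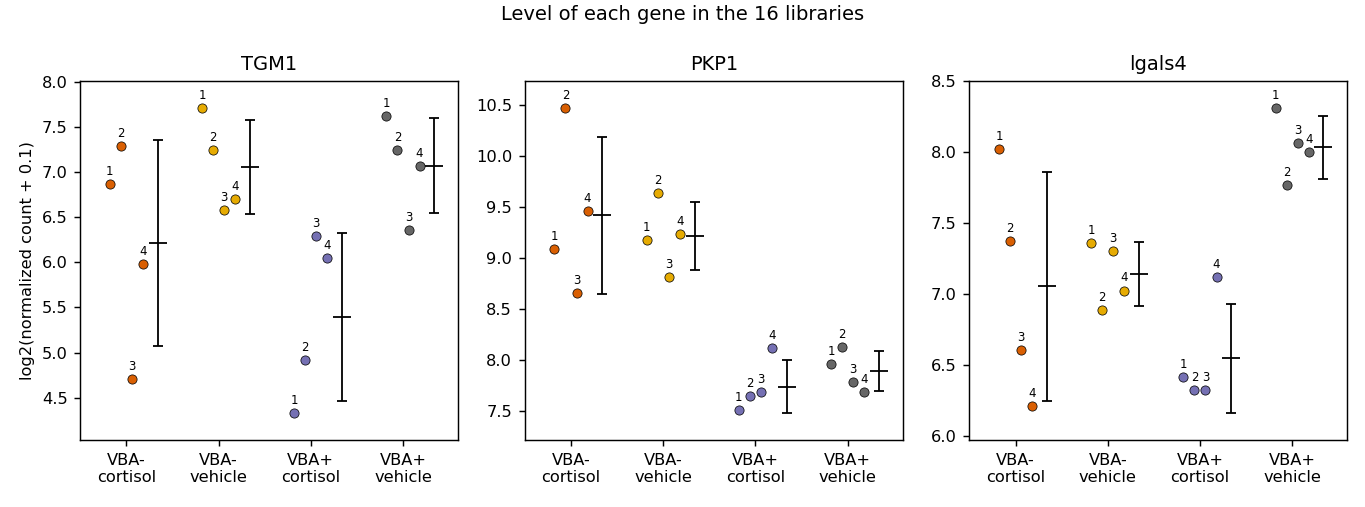
Level of TGM1, PKP1 and lgals4, as log2(normalized count + 0.1), in each of the 16 libraries by group. Numbers beside points are replicate numbers, and bars are the mean ± SD of 4 libraries. The 4 VBA+ cortisol libraries of TGM1 lie below the 4 VBA+ vehicle libraries, all 8 VBA- libraries of PKP1 lie above all 8 VBA+ libraries, and the 4 VBA+ vehicle libraries of lgals4 lie above the VBA- vehicle and VBA+ cortisol libraries.

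The libraries with little TGM1 also held an extreme place in the data as a whole. The first principal component, 47.6% of the variance of 8863 abundant genes, was 98.74 and 94.61 in replicates 1 and 2 of VBA+ cortisol, 91.61 and 65.4 in replicates 3 and 4 of VBA- cortisol, and no higher than 37.78 in any other library. TGM1 had its lowest levels in those same libraries, 4.33, 4.91, 4.71 and 5.98. The gene itself was too low to enter the component. The part of that component in the TGM1 values was not tested.

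PKP1 was higher in VBA- than in VBA+ larvae under vehicle, the call behind its choice. Its level was 9.17, 9.63, 8.81 and 9.23 in the VBA- vehicle libraries, against 7.95, 8.12, 7.78 and 7.68 in the VBA+ vehicle libraries. The lowest VBA- library was thus well above the highest VBA+ library. The means were 9.21 ± 0.34 and 7.89 ± 0.20 (SD, n = 4 each), a log2 fold change of 1.32 ± 0.17 (SE), or 2.51-fold higher. The difference was 1.36 in replicates 1 and 2 and 1.29 in replicates 3 and 4, and it was 1.34 without the VBA- vehicle replicate 1. In that comparison 0.235% of tested genes were called, 0.171% of them higher and 0.0646% lower as shares of all tested, and 7.67% had groups that did not overlap. With a replicate block 0.899% were called. The replicate numbers were taken as pairing these libraries from the values alone, since no pairing is stated for them. The groups were collected dish by dish, so equal numbers were not collected together, and counts with the block describe an alternative fit only. The calls of this comparison were few without 1 of its VBA+ vehicle libraries, at 14, 1, 2 and 1 genes over the whole table without replicates 1 to 4. PKP1 did not meet the limits without any of these libraries, nor without VBA- vehicle replicate 2 or 4, with log2 fold changes between 1.19 and 1.40.

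The genotype difference of PKP1 was also present in cortisol-treated larvae. These libraries are not in the vehicle comparison, but the choice of PKP1 named no treatment. They may thus have taken part in it, and the difference is not an independent repeat. Its level was 9.09, 10.46, 8.65 and 9.46 in the VBA- cortisol libraries, against 7.51, 7.64, 7.68 and 8.11 in the VBA+ cortisol libraries. Again every VBA- library was above every VBA+ library, which 4.17% of tested genes showed in either direction. The means were 9.41 ± 0.77 and 7.74 ± 0.26 (SD, n = 4 each), a log2 fold change of 1.68 ± 0.34 (SE), or 3.20-fold higher. It was 1.79 without the VBA- cortisol replicate 1. PKP1 did not meet the limits for a call here, and neither did any other gene in limma (0%), although 1701 had an unadjusted p under 0.05.

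No difference of PKP1 between cortisol and vehicle passed the test in either genotype. In VBA- larvae the log2 fold change was 0.20 ± 0.35 (SE, limma adjusted p 1.0, two-sided exact permutation p 0.714), and it fell below 0 without the VBA- cortisol replicate 2, the highest of all 16 libraries (-0.15). It was 0.31 without the VBA- cortisol replicate 1 and 0.19 without the VBA- vehicle replicate 1. In VBA+ larvae it was -0.15 ± 0.15 (SE, limma adjusted p 0.494, two-sided exact permutation p 0.371). Each of these comparisons shares its vehicle libraries with the call behind the choice. The interaction was 0.35 ± 0.41 (SE), 0.46 without the VBA- cortisol replicate 1 and 0.34 without the VBA- vehicle replicate 1. Without the VBA- cortisol replicate 2 it was near 0 (0.0044). In order of their means the groups were VBA- cortisol, VBA- vehicle, VBA+ vehicle and VBA+ cortisol, with overlap within each genotype and none between them.

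The lgals4 level was lower in VBA- vehicle larvae and in VBA+ cortisol larvae than in VBA+ vehicle larvae, and it was chosen for both differences. It was 7.36, 6.88, 7.30 and 7.02 in the VBA- vehicle libraries and 6.41, 6.32, 6.32 and 7.12 in the VBA+ cortisol libraries, against 8.31, 7.77, 8.07 and 8.00 in the VBA+ vehicle libraries. No library of the first 2 groups reached the lowest VBA+ vehicle library. Both comparisons use the same VBA+ vehicle libraries, so they are not independent of each other. For VBA- against VBA+ in vehicle the means were 7.14 ± 0.23 and 8.04 ± 0.22 (SD, n = 4 each), a log2 fold change of -0.89 ± 0.15 (SE), or 1.86-fold lower, and -0.97 without the VBA- vehicle replicate 1. Without any 1 of the other 7 libraries it was between -0.98 and -0.80 and did not meet the call limits. For cortisol against vehicle in VBA+ the means were 6.54 ± 0.39 and 8.04 ± 0.22 (SD, n = 4 each), a log2 fold change of -1.49 ± 0.19 (SE), or 2.81-fold lower.

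In VBA- larvae the cortisol and vehicle groups had similar means of lgals4. The VBA- cortisol libraries were at 8.02, 7.38, 6.60 and 6.21, against 7.36, 6.88, 7.30 and 7.02 in the VBA- vehicle libraries. The cortisol group reached both above and below the vehicle group, with replicates 1 and 2 on top. The means were 7.05 ± 0.81 and 7.14 ± 0.23 (SD, n = 4 each), and the log2 fold change was -0.09 ± 0.36 (SE). It was 0.58 in replicates 1 and 2 and -0.76 in replicates 3 and 4. Without the VBA- cortisol replicate 1 it was -0.41 and without the VBA- vehicle replicate 1 it was -0.02, and its sign changed without the VBA- cortisol replicate 3 (0.06) or 4 (0.19).

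In cortisol, the lgals4 mean was 7.05 in VBA- and 6.54 in VBA+ larvae, a log2 fold change of 0.51 ± 0.38 (SE). It was 0.18 without the VBA- cortisol replicate 1, and it was 1.33 in replicates 1 and 2 against -0.32 in replicates 3 and 4. The interaction, the cortisol effect in VBA- minus that in VBA+ larvae, was 1.40 ± 0.43 (SE), 1.08 without the VBA- cortisol replicate 1 and 1.47 without the VBA- vehicle replicate 1. Of the 4 groups in it, 3 took part in the choice of lgals4, and that choice favours a positive value. In order of their means the groups were VBA+ vehicle, VBA- vehicle, VBA- cortisol and VBA+ cortisol, and only the first did not overlap the next.

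Within the VBA- cortisol group, lgals4 was ordered as NR3C1 and FKBP5 were. The libraries ran 8.02, 7.38, 6.60 and 6.21 for lgals4 from replicate 1 to replicate 4, 9.21, 8.69, 8.46 and 7.83 for NR3C1, and 8.95, 6.94, 6.66 and 3.34 for FKBP5. This order was noticed after the values were seen. In the VBA- vehicle group it did not recur, since replicate 3 held the highest NR3C1 level (9.33) and replicate 1 the highest lgals4 level (7.36). The part of residual NR3C1 RNA in the lgals4 values was not tested.

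**Figure D2:**
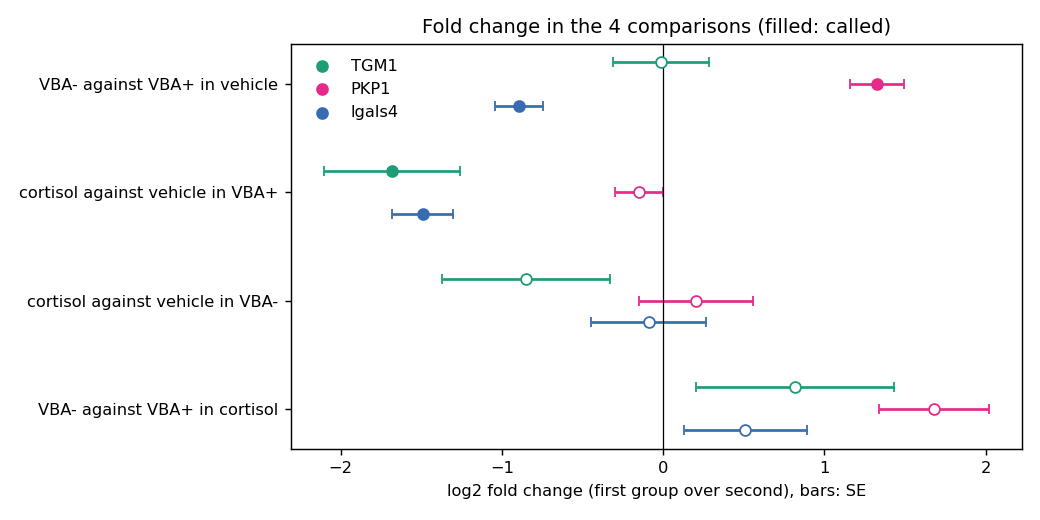
Log2 fold change ± SE of the 3 genes in the 4 comparisons of 2 groups, 4 libraries in each group. Filled points met the call limits, and for every filled point that comparison was also the call behind the choice of the gene. PKP1 stands at 1.32 for VBA- against VBA+ in vehicle and at 1.68 in cortisol, whereas lgals4 is at -0.89 and 0.51 in those comparisons.

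Among the transglutaminases, a family of protein-crosslinking enzymes that includes a blood clotting factor, 10 rows were tested. For cortisol in VBA+ larvae tgm1l3 rose (0.78 ± 0.14, SE, limma adjusted p 0.013) and 1 of the rows named TGM2, ENSDARG00000070157, fell beside TGM1 (-0.60 ± 0.16, SE, limma adjusted p 0.0376). The median log2 fold change of the family was 0.01, against -0.01 over all tested genes. For VBA- against VBA+ in vehicle only the other TGM2 row, ENSDARG00000074094, was called (0.55 ± 0.09, SE, limma adjusted p 0.0493), and none was without the VBA- vehicle replicate 1. The median there was -0.01, against -0.02 over all tested genes.

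A second row carries the symbol TGM1 (ENSDARG00000017799) and followed the first neither in cortisol nor by genotype. Its mean was 6.40 ± 0.25 in VBA+ cortisol and 6.43 ± 0.23 in VBA+ vehicle (SD, n = 4 each), a log2 fold change of -0.03 ± 0.17 (SE, limma adjusted p 0.912). Under vehicle it averaged 7.05 ± 0.20 in VBA- and 6.43 ± 0.23 in VBA+ larvae (SD, n = 4 each), without overlap, and its log2 fold change of 0.61 ± 0.16 (SE) did not pass (limma adjusted p 0.155). Whether the difference between the rows is larger than their error was not tested, nor was whether reads were shared between them.

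Of 6 plakophilin rows 4 had the mean count needed for a call, PKP1 among them, and none besides PKP1 was called in either comparison. The row named pkp1a (ENSDARG00000090598) is separate from PKP1 and had a mean normalized count of 37.9, too low for a call. Its log2 fold change was -0.35 ± 0.30 (SE) for VBA- against VBA+ in vehicle and -0.98 ± 0.38 (SE, limma adjusted p 0.0975) for cortisol in VBA+. The other 4 plakophilins, pkp2, pkp3a, PKP3 and PKP4, lay between -0.05 and 0.14 for VBA- against VBA+ in vehicle. The family median was 0.00 by genotype under vehicle and -0.22 with cortisol in VBA+ larvae, against -0.02 and -0.01 over all tested genes.

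The other desmosome genes shared the direction of PKP1 by genotype. All 9 had a positive log2 fold change for VBA- against VBA+ in vehicle, with a median of 0.43 against -0.02 over all tested genes. Of these 1 was called, dsg2.1, a desmoglein, which is an adhesive cadherin of the desmosome (0.89 ± 0.13, SE, limma adjusted p 0.0408). With the replicate block 3 of the 9 were called, against 0.899% of all tested genes, and without the VBA- vehicle replicate 1 it was 2. Without that library 8 of the 9 were positive and 1 was negative, with a median of 0.498. A row of DSP (ENSDARG00000022309), the desmoplakin that links plaque to keratin, was at 0.64 ± 0.12 (SE, limma adjusted p 0.0645), evpla, an envoplakin, at 0.56 ± 0.13 (SE, limma adjusted p 0.119), and dsc2l, a desmocollin, at 0.43 ± 0.10 (SE, limma adjusted p 0.137). None of the 9 was called for cortisol in VBA+, where their median was 0.17, against -0.01 over all tested genes.

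In cortisol the same 9 desmosome genes had a median log2 fold change of 0.49 for VBA- against VBA+, against 0.00 over all tested genes, and 8 were positive. None was called. The level of dsg2.1 was 9.59 ± 0.45 in VBA- cortisol and 8.67 ± 0.21 in VBA+ cortisol, 9.39 ± 0.22 in VBA- vehicle and 8.50 ± 0.20 in VBA+ vehicle (SD, n = 4 each). As for PKP1, the VBA- libraries of dsg2.1 were all above the VBA+ libraries, from 9.11 to 10.19 against 8.26 to 8.85.

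Of 15 galectin rows, which include 3 genes of galectin-3-binding proteins that are not lectins of this family, 9 had the mean count needed for a call. None besides lgals4, which was chosen for it, was called for VBA- against VBA+ in vehicle. For cortisol in VBA+ larvae lgals1l1, a galectin of the type of galectin-1, fell too (-0.92 ± 0.14, SE, limma adjusted p 0.00985). Its level was 8.51 ± 0.22 in VBA+ cortisol and 9.43 ± 0.23 in VBA+ vehicle (SD, n = 4 each). Under vehicle 10 of the 15 rows were positive by genotype, with a median of 0.13, whereas lgals4 was negative. With cortisol in VBA+ 11 of the 15 were negative, with a median of -0.18. The rows lgals9l5 and lgals9l6 showed larger differences by genotype in vehicle (1.54 and 1.16), but their mean normalized counts of 24.9 and 5.25 were under the limit for a call.

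**Figure D3:**
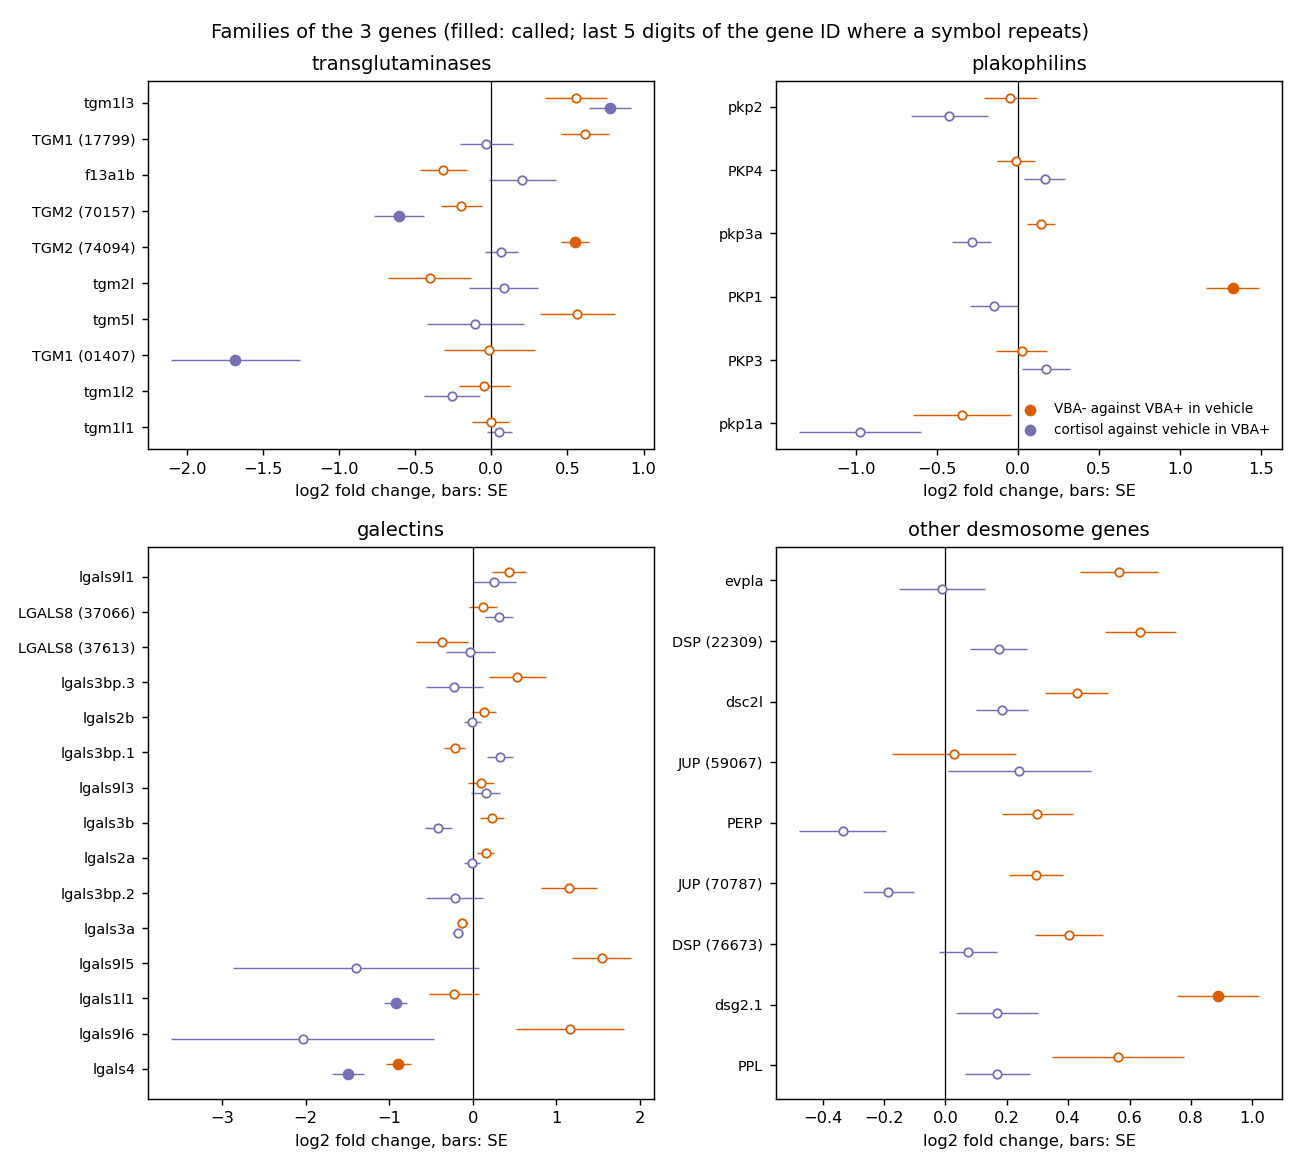
Log2 fold change ± SE of every tested transglutaminase, plakophilin, galectin and other desmosome gene, for VBA- against VBA+ in vehicle (orange) and for cortisol against vehicle in VBA+ (purple). Filled points met the call limits. All 9 other desmosome genes lie right of 0 in orange, and 1 of them, dsg2.1, is filled.

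The wider barrier genes were examined as lists. For cortisol in VBA+ the counts below stand against 8.22% of all tested genes called. With the replicate block no gene of any of the 19 lists was called in that comparison, where the numbers were not taken as pairing. The block left only 6 of all 21686 tested genes called there, so this absence is not particular to the lists. For VBA- against VBA+ in vehicle the counts stand against 0.171% of all tested genes called higher and 0.0646% lower. With the replicate block that comparison had 0.899% of all tested genes called. Of 13 genes for barrier lipids and surface proteases, 4 were higher in VBA- than in VBA+ larvae under vehicle and none lower, with a median log2 fold change of 0.39 against -0.02 over all tested genes. The largest differences were those of alox12, a lipoxygenase, at 1.11 ± 0.19 (SE), and of spint1b at 0.76 ± 0.09 (SE) and spint1a at 0.69 ± 0.12 (SE), which encode inhibitors of the protease matriptase, with limma adjusted p from 0.022 to 0.0493. The alox12 row is in the list only as a match to the symbol alox12b, and whether it is the gene meant was not checked. The same 4-gene count was found without the VBA- vehicle replicate 1, and the replicate block gave 5. None of the 13 was called for cortisol in VBA+, and their median was -0.05.

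Keratins, the filament proteins that desmosomes anchor, had 2 of 22 called higher in VBA- vehicle larvae, krt99 (0.97 ± 0.14, SE) and krt15 (0.55 ± 0.07, SE), with limma adjusted p of 0.0389 and 0.022. The count was 4 with the replicate block and 1 without the VBA- vehicle replicate 1. The keratin krt1-19e was the only keratin called for cortisol in VBA+, and it fell (-0.61 ± 0.16, SE, limma adjusted p 0.0349). Of 12 adherens junction genes, cdh1, which encodes E-cadherin, was higher in VBA- vehicle larvae (0.86 ± 0.12, SE, limma adjusted p 0.0309), and NECTIN1 rose with cortisol in VBA+ (0.59 ± 0.17, SE, limma adjusted p 0.0421). None of 13 hemidesmosome genes was called in either comparison, with medians of 0.07 by genotype and 0.03 for cortisol.

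Of 53 tight junction genes tested, 3 claudins fell in VBA+ cortisol larvae, 5.66% of the list against 4.63% of all tested genes called lower. They were cldn1 (-0.92 ± 0.26, SE), cldna (-0.74 ± 0.20, SE) and cldn29 (-0.65 ± 0.16, SE), with limma adjusted p from 0.0278 to 0.0439. The median of the list was -0.07. None of the 53 was called for VBA- against VBA+ in vehicle, where the median was 0.23 and the replicate block gave 1. Among 12 epidermal transcription factors, grhl2a, of the grainyhead family that controls epithelial barrier genes, fell with cortisol (-0.67 ± 0.17, SE, limma adjusted p 0.0293). That is 8.33% of the list, near the share over all genes, while 10 of the 12 were negative, with a median of -0.29. No gene of any of these lists was called for cortisol in VBA- larvae or for genotype in cortisol.

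Markers of the skin itself were measured in the same libraries. Of 11 markers of the outer epidermal layer, 4 (36.4%) fell with cortisol in VBA+ larvae and 10 were negative, with a median log2 fold change of -0.50. The largest falls were in icn2 (-1.15 ± 0.23, SE) and agr1 (-0.91 ± 0.20, SE), followed by icn (-0.70 ± 0.18, SE), with limma adjusted p from 0.017 to 0.0309. Under vehicle none of the 11 was called by genotype, although their median was 0.43, and the replicate block gave 1. The log2 of their summed normalized counts ran from 18.79 to 19.35 in VBA- cortisol, 18.87 to 19.29 in VBA- vehicle, 18.29 to 18.83 in VBA+ cortisol and 18.84 to 18.95 in VBA+ vehicle. The sum was thus lower in every VBA+ cortisol library than in any VBA+ vehicle library, but by very little in replicates 3 and 4. These were at 18.831 and 18.833, against 18.836 in the lowest VBA+ vehicle library, while replicates 1 and 2 were at 18.29 and 18.72. Of single tested genes, 20.2% had groups that did not overlap in that comparison. No marker of the list had a median of 0 over the 16 libraries.

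Of 7 basal epidermal markers, cdh1 was the only one called in VBA- vehicle larvae, and all 7 were positive. This is the same cdh1 call as among the adherens junction genes, not a further one. Their log2 sum ran from 13.65 to 13.97 in VBA- cortisol, 13.71 to 13.89 in VBA- vehicle, 13.30 to 13.69 in VBA+ cortisol and 13.43 to 13.64 in VBA+ vehicle. For the 17 gut epithelium markers the groups all overlapped, with log2 sums from 14.54 to 15.22 in VBA- cortisol, 14.50 to 15.20 in VBA- vehicle, 14.69 to 15.21 in VBA+ cortisol and 14.57 to 15.11 in VBA+ vehicle. Of the 17, cdx1b alone was called, and it rose with cortisol in VBA+ (0.64 ± 0.18, SE, limma adjusted p 0.0393). None of 4 mucous cell markers and none of 6 leukocyte markers was called in either comparison, and 3 of each list had the mean count needed for a call.

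**Figure D4:**
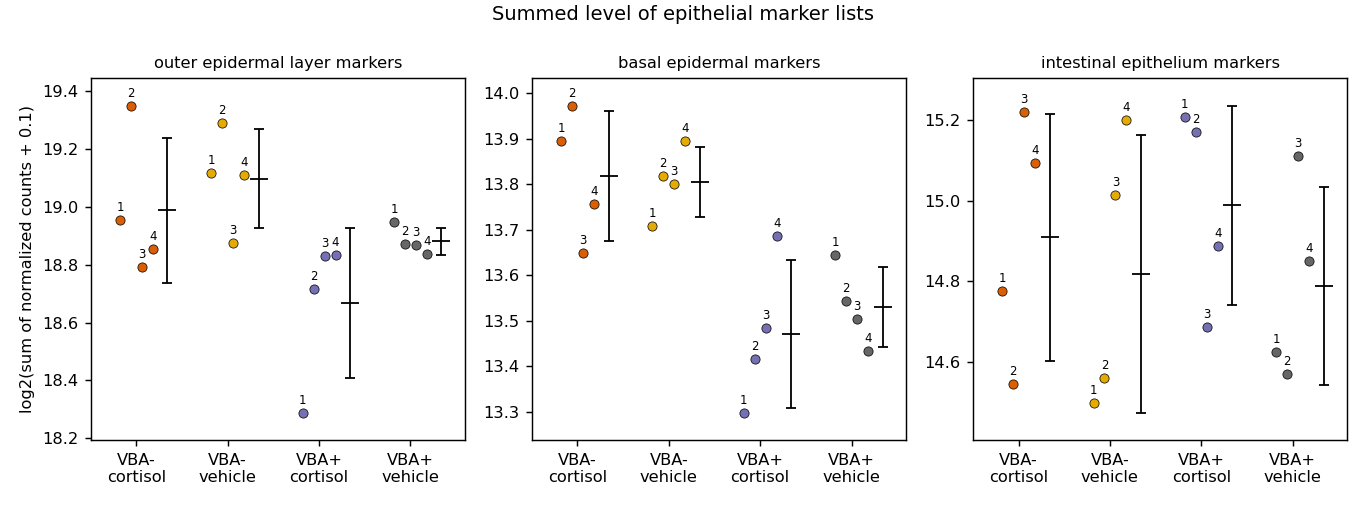
Log2 of the summed normalized counts plus 0.1 of outer epidermal, basal epidermal and intestinal marker lists in each library, by group, with replicate numbers and the mean ± SD of 4 libraries. The outer epidermal sum is lowest in VBA+ cortisol (18.29 to 18.83), and the intestinal sums of the 4 groups overlap.

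Set against the outer epidermal sum of the same library, a scale added after the data were seen, the differences that the 3 genes were chosen on, and the genotype difference of PKP1 in cortisol, had the same direction as before. The mean sum was 18.99 in VBA- cortisol, 19.10 in VBA- vehicle, 18.67 in VBA+ cortisol and 18.88 in VBA+ vehicle. These means lie closer together than the differences set against them. The direction could therefore not change, and this scale is a description and not a test. For PKP1 the log2 difference from that sum was -9.89 ± 0.17 in VBA- vehicle and -10.99 ± 0.18 in VBA+ vehicle, and -9.57 ± 0.55 in VBA- cortisol and -10.93 ± 0.21 in VBA+ cortisol (SD, n = 4 each). The genotype difference on this scale was 1.11 in vehicle and 1.36 in cortisol. For TGM1 it was -13.27 ± 0.71 in VBA+ cortisol and -11.81 ± 0.50 in VBA+ vehicle (SD, n = 4 each), a difference of -1.47. For lgals4 it was -12.12 ± 0.39 in VBA+ cortisol, -11.96 ± 0.37 in VBA- vehicle and -10.84 ± 0.19 in VBA+ vehicle (SD, n = 4 each). Against the gut epithelium sum, lgals4 was at -8.44 ± 0.50 in VBA+ cortisol, -7.68 ± 0.43 in VBA- vehicle and -6.75 ± 0.31 in VBA+ vehicle (SD, n = 4 each).

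Markers of other organs were counted too. For VBA- against VBA+ in vehicle 1 of 9 liver markers was called higher, ambp (0.91 ± 0.14, SE, limma adjusted p 0.0461), with 5 under the replicate block and none without the VBA- vehicle replicate 1. With cortisol in VBA+ 3 of the 9 (33.3%) rose, tfa (1.00 ± 0.27, SE), serpina1 (0.81 ± 0.20, SE) and FGB (0.72 ± 0.21, SE), with limma adjusted p from 0.028 to 0.0479. The liver log2 sum under vehicle was higher in VBA- (15.96 to 16.16) than in VBA+ larvae (15.34 to 15.72), without overlap. Of 8 muscle markers 1 (12.5%), TNNT3, was lower in both comparisons (-0.91 ± 0.12 by genotype and -0.76 ± 0.07 for cortisol, SE, limma adjusted p 0.0309 and 0.00131). The muscle log2 sum ran from 18.07 to 18.36 in VBA- cortisol and 18.07 to 18.27 in VBA- vehicle. Every VBA+ library was above these, at 18.39 to 18.55 in cortisol and 18.37 to 18.65 in vehicle. Of 10 neuron markers ELAVL3 and ELAVL4 rose and STMN1 fell with cortisol in VBA+, so the called ones went both ways. Of the 10, 8 were positive, with a median of 0.32. The neuron log2 sum under vehicle was 13.83 to 13.98 in VBA- and 14.02 to 14.30 in VBA+ larvae. Of 4 blood cell markers SLC4A1 was called and rose with cortisol in VBA+, but 3 were negative, with a median of -0.20. The TNNT3, STMN1 and SLC4A1 rows are listed only as matches to symbols with a copy letter. Whether they are the genes meant was not checked. The part of cell make-up in the values of TGM1, PKP1 and lgals4 was not tested.

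Likeness was measured as the Pearson correlation of log2 levels over the 16 libraries, which fall into 4 groups, with 13761 genes of a mean normalized count of at least 75. PKP1 was most like alox12 (0.980), then CAPG, an actin-capping protein gene (0.972), CCNI, a cyclin gene (0.960), the matriptase gene row st14, ENSDARG00000100088 (0.959), and dsg2.1 (0.958). Like PKP1, alox12 was higher in all VBA- libraries than in any VBA+ library, with 9.59 ± 0.52 in VBA- cortisol, 9.48 ± 0.42 in VBA- vehicle, 8.25 ± 0.30 in VBA+ cortisol and 8.37 ± 0.18 in VBA+ vehicle (SD, n = 4 each). These genes were picked for likeness to PKP1, itself chosen by genotype, so a shared genotype difference follows from the picking. When each library was first set to its distance from the group mean, CAPG (0.955) and anxa1c, an annexin gene of the outer epidermis (0.946), led for PKP1, followed by klhdc2 (0.939) and by a pair of genes known only by clone names.

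**Figure D5:**
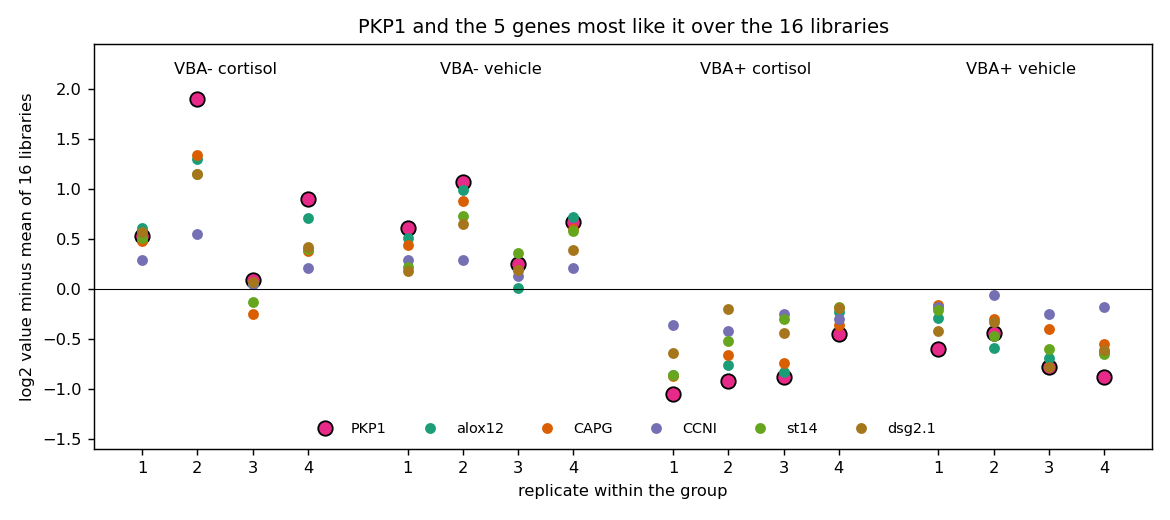
Log2 level of PKP1 and of the 5 genes most like it, as the distance from each gene's mean over the 16 libraries, by group and replicate number. In all 6 genes the VBA- libraries lie higher than the VBA+ libraries on average, and replicate 2 is the highest VBA- cortisol library, with PKP1 at 1.90 above its mean. The 5 genes were picked for likeness to PKP1 over these same libraries, so the shared genotype difference follows from the picking.

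For TGM1 the most similar genes were hmgn1a, a chromatin protein gene (0.958), zufsp (0.951), tuba8l2, an alpha-tubulin gene (0.938), and DYNLL2, a dynein light chain gene (0.935), together with a gene known only by a clone name. Their changes were smaller than that of TGM1. The level of hmgn1a was 11.75 ± 0.14 in VBA+ cortisol and 12.09 ± 0.07 in VBA+ vehicle (SD, n = 4 each), and that of zufsp was 5.83 ± 0.39 in VBA+ cortisol and 6.54 ± 0.18 in VBA+ vehicle (SD, n = 4 each). By distance from the group means the named genes among the first 5 were tspo (0.938) and VPS45 (0.935).

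For lgals4 the leading genes encode mitochondrial proteins. They were NDUFA4 (0.932) and NDUFB10 (0.922), of the respiratory chain, and MRPL47 (0.929), MRPL16 (0.914) and MRPL1 (0.914), of the mitochondrial ribosome. The level of NDUFB10 was 10.03 ± 0.34 in VBA- cortisol, 10.14 ± 0.09 in VBA- vehicle, 9.86 ± 0.13 in VBA+ cortisol and 10.39 ± 0.04 in VBA+ vehicle (SD, n = 4 each). By distance from the group means none of these was among the first 5, whose named genes were caspbl, a caspase-like gene (0.933), arap1a (0.932) and UCP2, an uncoupling protein gene (0.926). Over the libraries the correlation was 0.68 between TGM1 and lgals4, 0.40 between TGM1 and PKP1 and -0.04 between PKP1 and lgals4. These values include the group differences that the genes were chosen on, so they partly follow from the choice. Taken as distances from the group means, it was 0.52 between TGM1 and lgals4, 0.65 between TGM1 and PKP1 and 0.15 between PKP1 and lgals4.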

How the data were processed

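Whole larvae were profiled by RNA-seq of poly(A) RNA in 16 pools. Per the labels and the methods of the study, the authors trimmed reads with Trimmomatic, aligned them with STAR 2.6.1b to GRCz11, estimated counts per gene with RSEM 1.3.0, and normalized these with EDASeq for GC content within libraries and by full quantiles between them. The values the authors deposited are log2 of the normalized count plus 0.1. The quantile step gave each library an identical distribution of values, 310 zeros included, so depth is unknown and the error given is that between pools. DESeq2 was the authors' test, on counts. Because log2 values were deposited, tests here used limma 3.58.1 under R 4.3.3 (lmFit, and eBayes with a trend) on the 8 libraries of each comparison, or on all 16 for the interaction. Genes whose normalized counts averaged 5 or more were tested, and the call limits are those in the methods of the study. Single genes were also compared by exact permutation (scipy 1.17.1). The fits were tested on simulated data.

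The genes and all lists were chosen with earlier results of these data known. The genes named are the 3 chosen genes, every gene of the transglutaminase, plakophilin, desmosome and galectin lists, at most 3 called genes of each other list per comparison, and the 5 genes most like each chosen gene by either measure, with NR3C1 and FKBP5 as checks. In the lists given as symbols, a symbol ending in a or b that was not found was matched by dropping that letter. Rows matched in this way include alox12 for alox12b, STMN1 for stmn1b, SLC4A1 for slc4a1a and TNNT3 for tnnt3a or tnnt3b. Whether these rows are the genes meant was not checked, so their places in the lists are uncertain. Gene symbols were looked up by ID, and copies sharing a symbol are given by ID. No sequences were used here.

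Replicate numbers are shared between groups. The correlations across genes of same-numbered deviations from the group means were 0.253, 0.212, 0.309 and 0.235 for VBA- against VBA+ in vehicle, all over the limit of 0.1, so the numbers were taken as pairing there. In the other comparisons at least 1 was under it, and for VBA- against VBA+ in cortisol they were -0.601, -0.59, -0.449 and -0.625. The methods of the study have the pools of each group collected from 1 dish before the next dish. Equal numbers in different groups thus do not mark pools collected together, and the pairing rests on the values alone. Alternatives were no trend, all 16 libraries in 1 fit, a replicate block, a term for replicates 1 and 2 against 3 and 4, other filters on low values, a pseudocount of 1, another library scaling, library weights and each library left out. No batch is stated for these libraries.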

Additional observations from a re-analysis of the deposited data

Results flagged for a closer look

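Levels of 37 genes (the 3 genes, NR3C1, FKBP5 and the called genes of the lists) were examined in each group of 4 libraries, 146 groups in all with any spread, for a library far from the other 3. By chance about 1 group in 20 is marked this way, and 7 were. Among the 3 genes, lgals4 stood out in replicate 4 of VBA+ cortisol, at 7.12 against 6.32 to 6.41 in the other libraries of its group. In the same library alox12 was at 8.69, against 8.06 to 8.16. In replicate 1 of VBA+ vehicle TGM2 (ENSDARG00000074094) was at 9.73, against 9.43 to 9.47, and NECTIN1 was at 7.67, against 7.88 to 7.89. In replicate 3 of VBA+ cortisol serpina1 was at 12.94, against 12.68 in each of the others. TNNT3 was at 15.54 in replicate 3 of VBA- cortisol and in replicate 4 of VBA- vehicle, against 16.13 in each of the others, values that repeat because the quantile normalization gives every library the same set of steps.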

How the results depend on the processing

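The differences behind the choices kept their direction under every alternative run, which is a description, since the genes were chosen for them. Several alternatives change only the error and leave the fold change as it was. Leaving out a library cannot reverse groups that do not overlap. With all 16 libraries in 1 fit none of the 4 met the call limits, namely TGM1 for cortisol in VBA+ (-1.68), PKP1 (1.32) and lgals4 (-0.89) for VBA- against VBA+ in vehicle, and lgals4 for cortisol in VBA+ (-1.49). The first 3 also missed them with no trend in the error model (-1.68, 1.32 and -0.89), and lgals4 in vehicle (-0.89) did so with no filter on low values. The replicate block ended the calls of TGM1 (-1.68) and lgals4 (-1.49) for cortisol in VBA+, where the numbers were not taken as pairing, and changed none of the other 13 results of the 3 genes. PKP1 for VBA- against VBA+ in cortisol (1.68) met the limits with all 16 libraries in 1 fit. TGM1 for VBA- against VBA+ in vehicle changed sign with library weights (0.056).

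With a library left out the ranges were -0.25 to 0.17 for TGM1, 1.19 to 1.46 for PKP1 and -0.98 to -0.80 for lgals4 in VBA- against VBA+ in vehicle. They were -1.98 to -1.33 for TGM1 and -1.68 to -1.40 for lgals4 for cortisol in VBA+, and lgals4 kept its call there each time. For cortisol in VBA- they were -1.21 to -0.35 for TGM1, -0.15 to 0.46 for PKP1 and -0.41 to 0.19 for lgals4. For VBA- against VBA+ in cortisol they were 0.46 to 1.32 for TGM1, 1.33 to 1.93 for PKP1 and 0.18 to 0.79 for lgals4, and for the interaction 0.47 to 1.33, 0.0044 to 0.61 and 1.08 to 1.68.

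Within replicates 1 and 2 and within replicates 3 and 4 the values were -2.82 and -0.55 for TGM1 with cortisol in VBA+ and 0.58 and -0.76 for lgals4 with cortisol in VBA-. For VBA- against VBA+ in cortisol they were 2.46 and -0.82 for TGM1, 2.20 and 1.16 for PKP1 and 1.33 and -0.32 for lgals4. For the interaction they were 2.42 and -0.76 for TGM1, 0.84 and -0.13 for PKP1 and 2.25 and 0.55 for lgals4.

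Counts over all genes varied widely between the alternatives. For VBA- against VBA+ in vehicle 51 genes were called, 195 with the replicate block, 363 when replicates 1 and 2 had a term of their own, 16 with all libraries in 1 fit, 8 with no filter, 1 with no trend, and 1 to 63 with a library left out. For cortisol in VBA+ 1783 were called, 6 with the replicate block, 21 with all libraries in 1 fit, 619 with no trend, 2770 with library weights, and 414 to 2925 with a library left out. With a library left out, calls in the vehicle comparison numbered 0 to 4 for the barrier lipid and protease list and 0 to 2 for the other desmosome genes. With the replicate block no gene of any list was called for cortisol in VBA+, although its numbers were not taken as pairing there. The outer epidermal markers called for cortisol in VBA+ numbered 1 to 6 with a library left out. The causes of these changes were not tested, and the unknown depth limits every value.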
